A study of Homo sapiens with 12 samples.

Results

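The genes described are the protein components of the cytosolic ribosome. They were chosen by name: every protein-coding row whose symbol is RPL or RPS followed by a number (with or without A, X or L), together with the stalk genes RPLP0 to RPLP2 and RPSA. This gave 81 genes of 59172 features, 49 of the large subunit and 32 of the small subunit. Of these, 79 passed the filter on low reads, as did 18062 features in all. The name rule also takes 4 paralogs, RPS27L, RPL3L, RPL10L and RPL39L, and leaves out FAU, which encodes a ribosomal protein fused to a ubiquitin-like protein.

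Libraries came from HCT-116, a human colorectal carcinoma line with wild-type p53, in 4 groups of 3. Untreated wild-type cells were compared with wild-type cells exposed for 24 h to CPT-11, the drug irinotecan, which the cell converts to a poison of topoisomerase I, with wild-type cells given lovastatin (an inhibitor of sterol synthesis) for 4 h and then CPT-11, and with cells in which the phosphatase SHP2 had been silenced and which also received CPT-11. The characteristics of the SHP2-silenced samples mention lovastatin as well, while their titles do not. No group held a control silencing construct, and none held SHP2 silencing or lovastatin without CPT-11. Against untreated cells, silencing, its construct and CPT-11 therefore cannot be told apart, nor can lovastatin and CPT-11. Against CPT-11 alone, silencing cannot be told apart from its construct. Whether replicates are separate cultures is not stated, and the p-values therefore reflect a spread between samples that may be technical.

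Each ribosome holds 1 copy of nearly every ribosomal protein, and cells make them in matched amounts. Their mRNAs share a start called the 5′ terminal oligopyrimidine (TOP) sequence, a C followed by a run of C and T, through which the kinase mTORC1 and the protein LARP1 control their translation and stability. Several free ribosomal proteins, among them RPL5 and RPL11, bind MDM2 when ribosome assembly fails and thereby stabilise the tumour suppressor p53.

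The TOP sequence can be read from the promoter windows that RefSeq gives for 64 of the 81 genes (build GRCh38.p14). A run was counted where a C within 5 bases of the annotated start began an unbroken stretch of at least 5 C or T bases on the strand of the gene. Such a run was present in 53 of the 64 genes (82.8%), against 25.2% of the windows of all 27305 symbols. A run of at least 8 bases was present in 44 (68.8%), against 6.73% of all symbols. The windows below, 40 bases before and 20 bases after the start, belong to the genes on which the comparisons turn: 4 with large differences between groups, 2 with lower values, and the paralog pair RPS27 and RPS27L. Capitals mark the run.

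RPL26, chr17:8383174-8383233, minus strand: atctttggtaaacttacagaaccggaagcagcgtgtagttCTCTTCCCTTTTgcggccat
RPS21, chr20:62387063-62387122, plus strand: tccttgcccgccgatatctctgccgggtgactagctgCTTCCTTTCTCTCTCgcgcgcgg
RPL39, chrX:119791611-119791670, minus strand: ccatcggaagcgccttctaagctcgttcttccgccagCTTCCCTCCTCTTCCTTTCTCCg
RPL36, chr19:5690255-5690314, plus strand: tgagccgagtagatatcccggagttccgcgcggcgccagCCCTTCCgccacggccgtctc
RPS6, chr9:19380217-19380276, minus strand: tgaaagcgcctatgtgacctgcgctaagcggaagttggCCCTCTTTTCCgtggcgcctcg
RPL21, chr13:27251518-27251577, plus strand: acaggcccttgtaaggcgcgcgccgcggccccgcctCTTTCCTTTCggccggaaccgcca
RPS27, chr1:153990722-153990781, plus strand: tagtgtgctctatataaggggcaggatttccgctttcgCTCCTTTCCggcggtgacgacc
RPS27L, chr15:63157458-63157517, minus strand: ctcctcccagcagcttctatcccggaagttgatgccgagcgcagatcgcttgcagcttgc

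RPL39 had a run of 22 bases, RPS21 of 15 and RPL26 of 12, while RPS6 had 11 and RPL21 had 10. The run was present in genes with higher values and in genes with lower values after treatment. In RPS27L no such run was found in this window, whereas its paralog RPS27 had a run of 9 bases. A match describes letters only and was not tested as a control site.

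The labels were checked first. PTPN11, which encodes SHP2, measured 6.01, 6.54 and 7.15 FPKM (reads per gene, scaled by gene length and by a library factor) in the SHP2-silenced libraries and 43.2 to 55.4 in the other 9. HMGCS1, a sterol synthesis gene that responds to statins, measured 101 to 105 FPKM in the lovastatin libraries and 24.9 to 25.8 in the SHP2-silenced ones, so the lovastatin named for the silenced samples was not seen in this gene. CDKN1A, the p21 gene and a p53 target, measured 142 to 156.5 FPKM in untreated and 483 to 704 in all treated libraries. Of the 10 colon epithelial markers checked, 7 had a mean of at least 1 FPKM over the 12 libraries, and all 10 summed to 887 to 1296 FPKM. Of 13 markers of stromal, endothelial and blood cells, 1 had such a mean. All 13 summed to 3.39 to 4.18 in untreated and 6.14 to 7.24 in SHP2-silenced libraries. Their part in the results was not tested. Libraries held 14447847 to 16224271 assigned reads. Among the CPT-11 libraries, replicate 3 differed from replicates 1 and 2 in a pair of readings. Its GC slope, the change of values with GC content, was 0.10 log2 units for each 10 points of GC, where the others had -0.20 and -0.23, and RN7SL2, a non-coding RNA of the particle that targets secreted proteins, stood at 400.2 FPKM against 37.2 and 17.6. Counts of ribosomal protein genes called in comparisons with CPT-11 are therefore given with and without it. Other lists, and genes named from them, are given with it only.

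Ribosomal protein genes took a larger share of the reads in SHP2-silenced libraries than in any other. The share was 6.04%, 5.93% and 5.91% of assigned reads in those 3 libraries. It was 5.14%, 4.88% and 4.66% in untreated cells, 4.75%, 4.90% and 5.48% with CPT-11, and 5.88%, 5.29% and 5.06% with lovastatin and CPT-11. The group means were 4.89% ± 0.24 (SD, n = 3), 5.04% ± 0.39, 5.41% ± 0.42 and 5.96% ± 0.070 in that order. The SHP2-silenced libraries did not overlap with any group, while the other 3 groups overlapped with each other. CPT-11 replicate 3 was the highest of its group. In cultured cells, as in any bulk sample, fewer cells with a high level and less of the RNA in each cell cannot be told apart. No test was made of this share, because it is a sum over the genes chosen.

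The GC slope of the libraries was also highest in the SHP2-silenced group. It was 0.17, 0.15 and 0.13 in those libraries. Untreated libraries had -0.01, -0.11 and -0.18, and lovastatin libraries 0.09, 0.07 and 0.02. RN7SL2 measured 1065 to 1469 FPKM in SHP2-silenced, 227 to 346 in lovastatin and 71.1 to 155 in untreated libraries. In each of the 4 groups, the library with the largest share of reads on ribosomal protein genes had the highest GC slope and the most RN7SL2 of its group. Between CPT-11 replicates 1 and 2 the order was the opposite. The part of GC slope and RN7SL2 in the share was not tested.

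**Figure D1:**
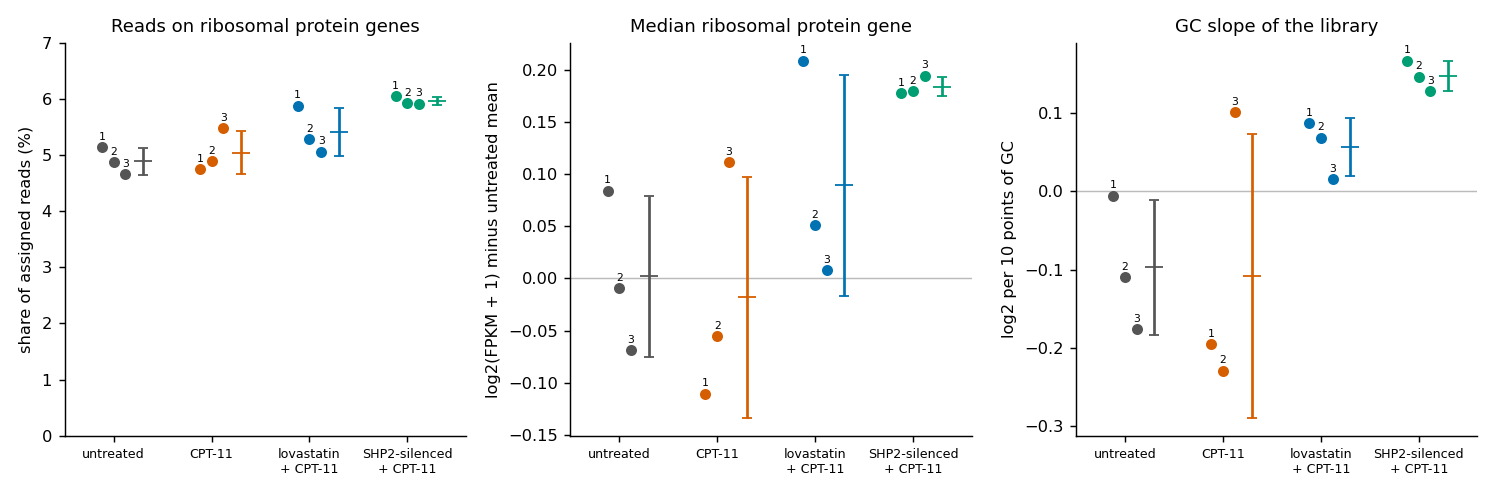
Share of assigned reads on the 81 ribosomal protein genes (left, %), the median tested gene relative to the untreated mean (middle, log2(FPKM + 1)) and the GC slope of each library (right, log2 per 10 points of GC). Points are libraries numbered by replicate and bars are mean ± SD of 3; SHP2-silenced libraries are highest on the left, at 5.91% to 6.04%, and CPT-11 replicate 3 lies apart from CPT-11 replicates 1 and 2 in all 3 panels.

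By gene, the mean of the SHP2-silenced group was the highest of the 4 group means for 53 of the 79 tested genes and the lowest for 5. The untreated and CPT-11 means were each the lowest for 31. Among single libraries, lovastatin replicate 1 held the highest value for 30 genes and CPT-11 replicate 1 the lowest for 25. The 3 SHP2-silenced libraries were also closely alike. The median SD over the tested genes was 0.029 (log2) in that group, against 0.089 in untreated cells, 0.14 with CPT-11 and 0.13 with lovastatin. Over all tested features the median SD was 0.074 in SHP2-silenced and 0.097 in untreated cells.

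**Figure D2:**
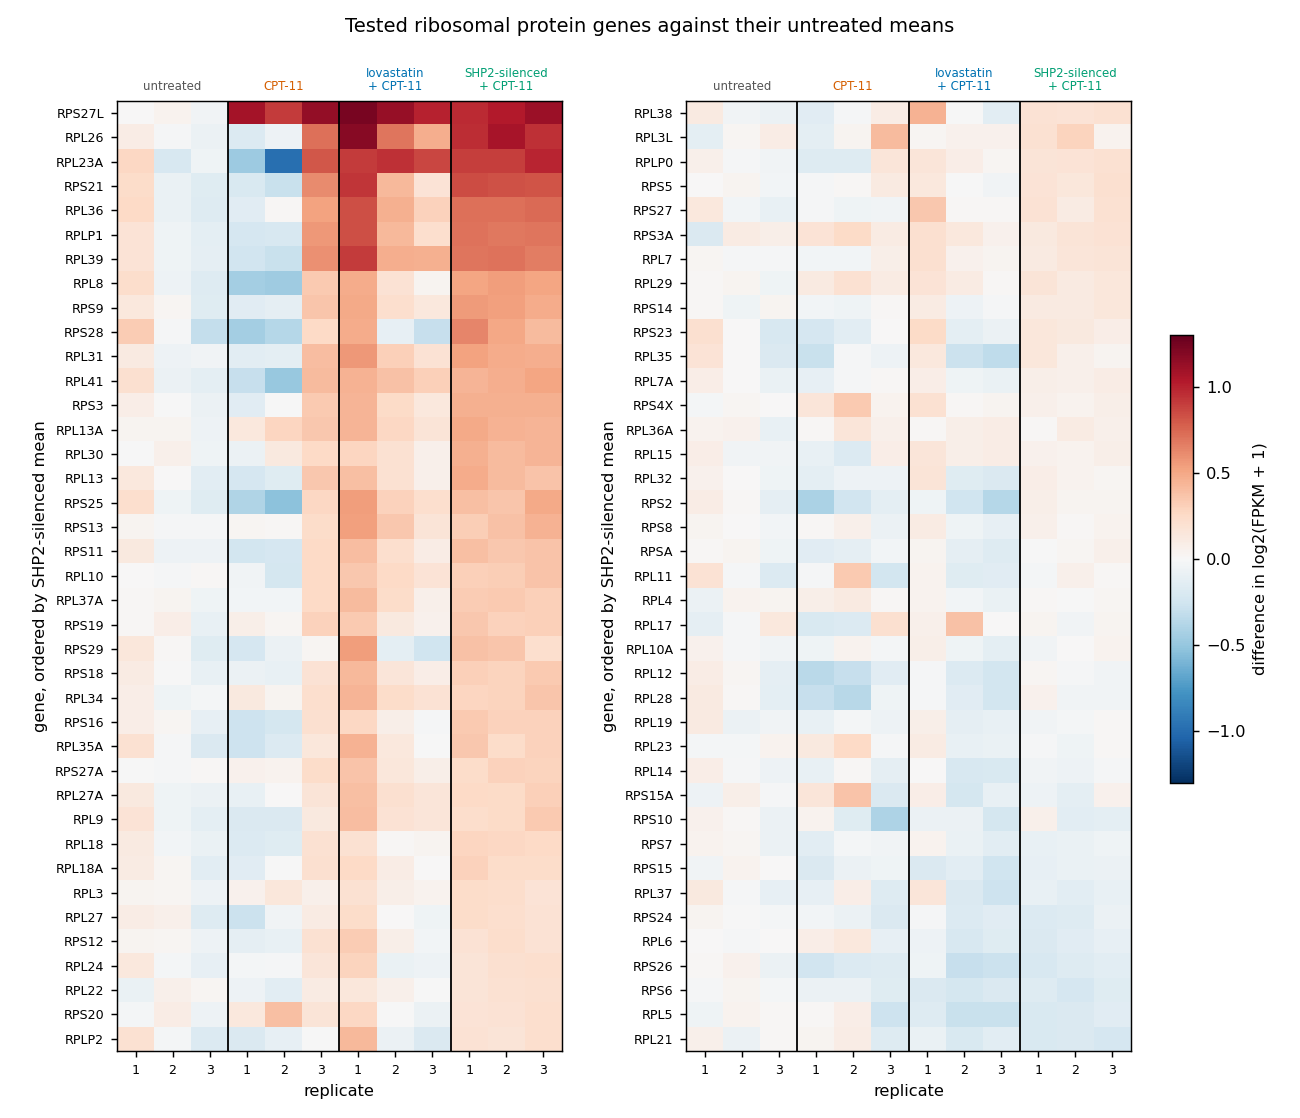
Tested ribosomal protein genes in each library, 1 left out, as the difference in log2(FPKM + 1) from its untreated mean (red higher, blue lower), with genes in rows ordered by the SHP2-silenced mean and libraries in columns by group and replicate. RPS27L at the top is red in all 9 treated libraries, whereas the next rows are red in CPT-11 replicate 3, lovastatin replicate 1 and the SHP2-silenced libraries and pale or blue in CPT-11 replicates 1 and 2.

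With CPT-11, 1 ribosomal protein gene was called higher than in untreated cells and 1 lower. RPS27L, a paralog of the small-subunit gene RPS27 and a known p53 target, rose. RPL12, whose protein sits at the base of the stalk, was called lower near the threshold. The median log2 difference of the 79 genes was -0.01. Over all 18062 tested features, 8.85% were called higher and 7.70% lower in this comparison (limma, adjusted p under 0.05). The share of ribosomal protein genes called was thus below that of features in general in both directions.

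RPS27L (ENSG00000185088, chromosome 15, 63125872 to 63158021, minus strand, GRCh38) measured 6.05, 6.26 and 5.84 FPKM in untreated cells. It measured 13.9, 12.3 and 14.5 FPKM with CPT-11, 12.8, 13.4 and 14.3 in SHP2-silenced cells, and 15.6, 14.5 and 13.1 where lovastatin preceded CPT-11. Every treated library was above every untreated one, and the 3 treated groups overlapped. The log2 difference from untreated cells was 1.04 ± 0.08 with CPT-11 (adjusted p = 6.8e-06), 1.12 ± 0.08 with lovastatin (adjusted p = 2.9e-06) and 1.04 ± 0.08 in SHP2-silenced cells (adjusted p = 4.1e-06). On the FPKM scale the CPT-11 mean was 2.24 times the untreated mean. All 3 calls held in each alternative fit, including those without CPT-11 replicate 3 and those corrected for GC and length.

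Its paralog RPS27 (ENSG00000177954) measured 430, 381 and 365 FPKM in untreated cells and 388, 376 and 380 with CPT-11. The groups overlapped, and the difference was -0.04 ± 0.09 (adjusted p = 0.837). In SHP2-silenced cells RPS27 measured 447, 422 and 449 FPKM, a difference of 0.17 from untreated cells that did not pass (adjusted p = 0.188). The difference between the 2 paralogs in response was not tested as such. Among other p53 targets, MDM2, the ubiquitin ligase that marks p53 for degradation, rose with CPT-11 by 1.54 (log2, adjusted p = 4.4e-06) and CDKN1A by 1.78 (adjusted p = 2.8e-07).

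**Figure D3:**
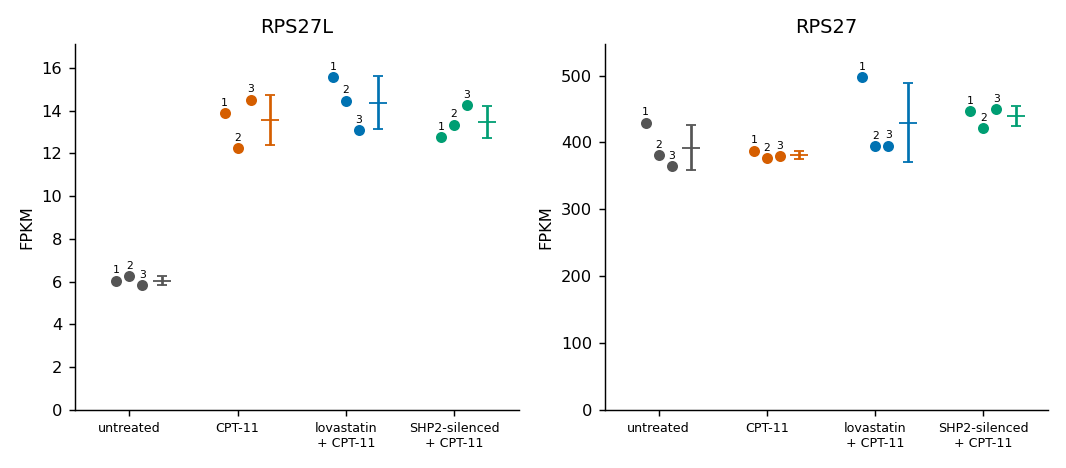
FPKM of RPS27L (left) and its paralog RPS27 (right) in the 12 libraries, numbered by replicate, with mean ± SD of 3 per group on axes that start at 0. RPS27L lies at 5.84 to 6.26 in untreated and at 12.3 to 15.6 in treated libraries, while the groups of RPS27 lie between 365 and 498 FPKM.

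RPL12 was the gene called lower with CPT-11. It measured 385, 365 and 331 FPKM in untreated cells and 281, 292 and 324 with CPT-11, without overlap. The difference was -0.27 ± 0.08 (adjusted p = 0.0448). The call ended when CPT-11 replicate 1 or 2, or untreated replicate 1 or 2, was left out (adjusted p up to 0.145), and it held after correction for GC and principal-transcript length (-0.27, adjusted p = 0.000274). Next to it in order were RPS2 (-0.26, adjusted p = 0.117), RPL28 (-0.24, adjusted p = 0.0995) and RPL23A (-0.22, adjusted p = 0.715). At the other end, RPL13A (0.26), RPS20 and RPS4X followed RPS27L, and none of them was called. RPL13A measured 708, 709 and 663 FPKM in untreated cells and 763, 841 and 884 with CPT-11, also without overlap.

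Without CPT-11 replicate 3, 2 genes were called higher and 7 lower against untreated cells, with a median of -0.08. Over all features that fit called 11.6% higher and 12.9% lower. The 7 were RPL12, RPS2, RPL28, RPL23A, RPS25, RPL8 and RPL41, of which RPL23A had the largest difference (-0.73, adjusted p = 0.00514). RPS4X (0.25, adjusted p = 0.0265) was called higher beside RPS27L.

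Cells with SHP2 silenced had higher levels of a part of the ribosomal protein genes than cells given CPT-11 alone. In this comparison 23 of the 79 tested genes were called higher and 0 lower, with a median log2 difference of 0.20, while 10% of all features were called higher and 12% lower. The calls covered both subunits, 15 of 47 large-subunit genes and 8 of 32 small-subunit genes. The 4 largest differences belonged to RPL23A, a large-subunit protein near the exit of the peptide tunnel (1.15 ± 0.33, adjusted p = 0.0338), RPL26, which also binds the mRNA of p53 (0.83 ± 0.22, adjusted p = 0.0243), RPS21 (0.78 ± 0.23, adjusted p = 0.0362) and RPL8 (0.71 ± 0.20, adjusted p = 0.0294). The lowest were RPL21 (-0.19), RPL6 (-0.18), RPS15A (-0.15) and RPL23 (-0.15), none of which passed.

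The count changed with single libraries. It was 41 higher and 5 lower without CPT-11 replicate 3, where the median was 0.25 and 21.6% of all features were called higher and 21.9% lower. All 23 genes called with it were among those 41. The count was 0 without CPT-11 replicate 1 or 2, without any of the SHP2-silenced libraries, or with only the 6 libraries of these groups in the fit (limma, with 25 to 38 genes at an unadjusted p under 0.05, where the fit of all 12 had 40). Of all features the fits with a count of 0 called 1.01% to 4.24% higher and 1.48% to 6.71% lower. The 5 lower genes without CPT-11 replicate 3 were RPL21, RPL6, RPS15A, RPL23 and RPL5. Exons of RPL6 overlap those of PTPN11, the silenced gene, on the other strand. How strand was treated in the counting is not given, and the part of this overlap in the RPL6 values was not tested.

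RPL23A (ENSG00000198242, chromosome 17, 28719393 to 28724359) varied most among the CPT-11 libraries. It measured 42.8, 29.8 and 105 FPKM with CPT-11, so its SD there was 40.4 against a mean of 59.3. SHP2-silenced libraries measured 112, 112 and 120.0 FPKM, lovastatin libraries 114, 117 and 110.2, and untreated libraries 72.1, 51.8 and 57.4. SHP2-silenced and lovastatin libraries did not overlap with untreated or CPT-11 ones, and CPT-11 replicate 3 lay near them. Its difference from untreated cells was 0.93 ± 0.33 in SHP2-silenced cells (adjusted p = 0.0466), a call that ended in 5 of the 6 fits that left out a library, the exception being untreated replicate 1 (adjusted p up to 0.131). Its row overlaps the small nucleolar RNA genes SNORD4B, SNORD42A and SNORD42B in 6.52% of its exonic length, so reads from them cannot be told apart, and its pseudogenes held 19.3% as many reads as the gene itself.

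Against untreated cells, SHP2-silenced cells with CPT-11 had 26 genes called higher and 2 lower, with a median of 0.19. Over all features, 18.3% were called higher and 19.5% lower, so calls of higher level made up 32.9% of the ribosomal protein genes against 18.3% of features, and calls of lower level 2.53% against 19.5%. These 2 comparisons share the SHP2-silenced libraries and are not independent of each other. Leaving out 1 library at a time changed the count of both directions together to 12 to 29 genes: it was 13, 14 and 18 without SHP2-silenced replicates 1, 2 and 3, and 12 and 14 without untreated replicates 3 and 2. Of all features those fits called 13.5% to 17.5% higher and 14.95% to 18.8% lower. Called higher were 13.9% of the ribosomal protein genes without untreated replicate 3, against 13.5% of features. The shares were 16.5% against 14.0% without untreated replicate 2 and 35.4% against 17.5% without untreated replicate 1. Without SHP2-silenced replicates 1, 2 and 3 they were 16.5%, 17.7% and 21.5%, against 14.0%, 14.1% and 15.2%. At most 1.27% of the ribosomal protein genes were called lower in any of these fits. With only these 6 libraries in the fit, 43 genes were called higher and 6 lower, against 21.3% and 21.4% of all features.

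RPL26 (ENSG00000161970, chromosome 17, 8377516 to 8383250, minus strand) had the largest difference after RPS27L. It measured 7.89, 7.18 and 6.85 FPKM in untreated cells and 15.1, 16.4 and 14.99 in SHP2-silenced cells. CPT-11 libraries measured 6.34, 6.92 and 12.6 FPKM, and lovastatin libraries 17.9, 12.5 and 10.5. SHP2-silenced and lovastatin libraries were all above the untreated ones, as was CPT-11 replicate 3. The difference between SHP2-silenced and untreated cells was 0.99 ± 0.22 (adjusted p = 0.00464), and it passed in every alternative fit (adjusted p up to 0.0194). The promoter window of RPL26 shown above has a TOP run of 12 bases. Of its exonic length, 14.3% is shared with another annotated gene on the same strand. RPL26 held 5417 reads over the 12 libraries, few for a core protein, and its pseudogenes held 40.5% as many.

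RPS21, a small-subunit protein needed for the maturation of the small-subunit rRNA, measured 166, 132 and 126 FPKM in untreated cells and 252.5, 249.5 and 249 in SHP2-silenced cells. The difference was 0.83 ± 0.23 (adjusted p = 0.0161), and it did not pass without untreated replicate 2 or 3 (adjusted p up to 0.0595). RPL36, a large-subunit protein named here after its values were seen, measured 120.0, 94.2 and 88.8 FPKM in untreated and 165, 165 and 168 in SHP2-silenced libraries, a difference of 0.72 ± 0.18 (adjusted p = 0.00829) that passed without each library in turn (adjusted p up to 0.0372). Its GC content, 63.5%, is the highest of the genes, and after correction for GC and principal-transcript length the difference was 0.38 (adjusted p = 0.000568). For both genes the SHP2-silenced libraries did not overlap with the untreated ones, and lovastatin replicate 1 (269 FPKM of RPS21 and 180.1 of RPL36) was the highest of all 12.

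Of the 3 genes of the stalk, which recruits translation factors to the ribosome, 1 was called higher in SHP2-silenced against untreated cells. RPLP1 measured 237, 202 and 191 FPKM in untreated cells and 343, 337 and 339 in SHP2-silenced cells, and was called higher (0.69 ± 0.20, adjusted p = 0.0194). The call ended without untreated replicate 2 or 3 or SHP2-silenced replicate 1 (adjusted p up to 0.0684). RPLP2 (0.19, adjusted p = 0.313) and RPLP0, the stalk's base (0.18, adjusted p = 0.139), did not pass, and the difference between the stalk genes was not tested.

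Among genes of the tunnel and the subunit core, RPL39, a very short protein that lines the peptide tunnel, was called higher in SHP2-silenced cells (0.69 ± 0.20, adjusted p = 0.0211). RPL10, which completes the large subunit and helps form the peptidyl transferase centre (0.33, adjusted p = 0.0220), RPL3, part of that centre (0.21, adjusted p = 0.0218), and RPL22, which lies on the outer surface (0.20, adjusted p = 0.0432), were also called. RPS19, mutated in Diamond-Blackfan anaemia, was called higher (0.32, adjusted p = 0.0151) but measured 0.01 after the correction on principal transcripts (adjusted p = 0.943). RPL3 did not pass after that correction either (0.09, adjusted p = 0.206). Each of these 5 calls ended without untreated replicate 3 and without SHP2-silenced replicate 1. RPL39, RPL10, RPL3 and RPL22 also ended without SHP2-silenced replicate 2, RPL39, RPL10 and RPL22 without untreated replicate 2, RPL10 and RPL22 without SHP2-silenced replicate 3, and RPL22 without untreated replicate 1. The highest adjusted p was 0.137, for RPL22. RPL41, the smallest protein of the ribosome (0.48, adjusted p = 0.0639), RPS14 (0.13, adjusted p = 0.0828), RPSA, also known as the laminin receptor (0.03, adjusted p = 0.770), RPS4X (0.06, adjusted p = 0.557) and RPL36A (0.06, adjusted p = 0.533) did not pass.

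The 2 genes called lower in SHP2-silenced against untreated cells were RPL21 and RPS6. RPS6 is the small-subunit protein that the S6 kinases phosphorylate. It measured 423, 435.5 and 419 FPKM in untreated cells, 404, 404 and 382 with CPT-11, 375, 362.5 and 374 with lovastatin, and 378, 366 and 383 in SHP2-silenced cells. Untreated libraries were all above every treated one. The difference was -0.18 ± 0.05 (adjusted p = 0.0218) in SHP2-silenced cells and -0.20 ± 0.05 (adjusted p = 0.0170) with lovastatin. In SHP2-silenced cells it was -0.04 after the correction on principal transcripts (adjusted p = 0.518) and -0.08 when scaled to library totals (adjusted p = 0.209), and the call ended without SHP2-silenced replicate 1 or 2 or untreated replicate 2 (adjusted p up to 0.0894). RPL21, a large-subunit protein, differed by -0.20 ± 0.07 (adjusted p = 0.0435) and by -0.24 after correction on principal transcripts (adjusted p = 0.00633). It did not pass after correction for GC and deposited length (-0.12, adjusted p = 0.105) or when scaled to library totals (-0.11, adjusted p = 0.241). Its call also ended in 5 of the 6 fits that left out a library, the exception being untreated replicate 2 (adjusted p up to 0.122).

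**Figure D4:**
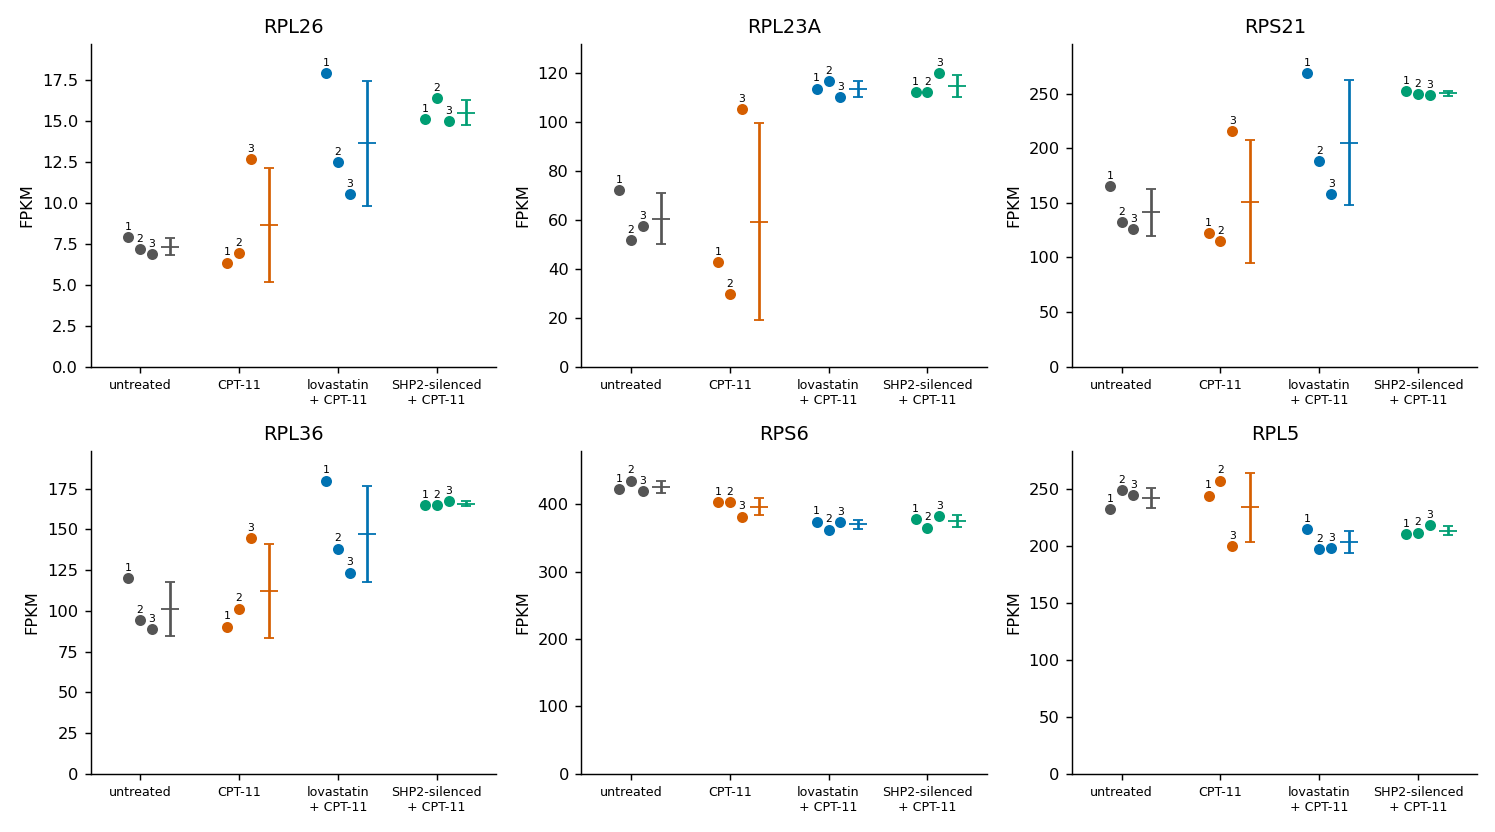
FPKM of 6 ribosomal protein genes in the 12 libraries, numbered by replicate, with mean ± SD of 3 per group on axes that start at 0. In RPL26, RPL23A, RPS21 and RPL36 the SHP2-silenced libraries are above the untreated ones and CPT-11 replicate 3 is above CPT-11 replicates 1 and 2; in RPS6 and RPL5 the SHP2-silenced libraries are below the untreated ones.

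Of the 5 ribosomal proteins that bind MDM2, namely RPL5, RPL11, RPL23, RPL26 and RPS7, 1 was called higher in SHP2-silenced against untreated cells (RPL26) and 0 lower, where 18.3% and 19.5% of all features were. RPL5, which with RPL11 and 5S rRNA forms the particle that restrains MDM2, measured 232, 249 and 244.5 FPKM in untreated, 244, 257 and 199.8 with CPT-11, 215, 197 and 198 with lovastatin, and 210.1, 211.5 and 218 in SHP2-silenced libraries. It was called lower with lovastatin and CPT-11 against untreated cells (-0.25 ± 0.08, adjusted p = 0.0457), a call that ended when any 1 of the 6 libraries was left out (adjusted p up to 0.133). Against untreated cells the SHP2-silenced difference was -0.18 (adjusted p = 0.114). RPL11 measured 278, 242 and 217 FPKM in untreated and 239.7, 256.4 and 248 in SHP2-silenced libraries, a difference of 0.02 (adjusted p = 0.923). RPL23 (-0.02, adjusted p = 0.853) and RPS7 (-0.08, adjusted p = 0.304) did not pass. After correction for GC and principal-transcript length RPS7 was called lower (-0.16, adjusted p = 0.00213).

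Lovastatin before CPT-11 gave no call against CPT-11 alone. In that comparison 0 of 79 genes were called in either direction and the median was 0.10, while 0.393% of all features were called higher and 0.0720% lower. At an unadjusted p under 0.05 there were 16 such genes, and limma-voom on the recovered reads called 0. The largest differences were those of RPL23A (1.13 ± 0.33, adjusted p = 0.157), RPL26 (0.63, adjusted p = 0.188), RPL39 (0.59, adjusted p = 0.185) and RPS25 (0.57, adjusted p = 0.168), and the lowest those of RPS15A and RPL5 (both -0.19). Without CPT-11 replicate 3, 28 genes were called higher and 5 lower with a median of 0.16, and 15.9% of all features were called higher and 14.3% lower. RPL23A then differed by 1.64 (adjusted p = 0.000221) and RPL5 by -0.30 (adjusted p = 0.00357).

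Against untreated cells, lovastatin with CPT-11 had 8 genes called higher and 4 lower, with a median of 0.08, against 14.7% and 14.3% of all features. RPS27L, RPL26 (0.79 ± 0.22, adjusted p = 0.0197), RPL39 (0.61 ± 0.20, adjusted p = 0.0427) and RPL36 (0.53 ± 0.18, adjusted p = 0.0428) were among the higher genes. RPL26 did not pass without lovastatin replicate 1 or untreated replicate 2 or 3 (adjusted p up to 0.0783), nor RPL39 without any library but untreated replicate 1 (adjusted p up to 0.155), nor RPL36 without lovastatin replicate 1 or 2 or untreated replicate 2 or 3 (adjusted p up to 0.160). The lower genes were RPL5, RPS26 (-0.21, adjusted p = 0.0381), RPS6 and RPS15 (-0.20, adjusted p = 0.0256), the last named to complete the count. Each of these 4 ended without some library: RPS26 without lovastatin replicate 2 or 3 or untreated replicate 1 or 2 (adjusted p up to 0.144), RPS6 without lovastatin replicate 2 or untreated replicate 2 (up to 0.0721), RPS15 without lovastatin replicate 1 or 3 or untreated replicate 2 or 3 (up to 0.0989), and RPL5 as above. The count was 2 higher and 4 lower without lovastatin replicate 1, and 4 and 1 without replicate 2. It was 2 and 0 without untreated replicate 2, and 3 and 2 without untreated replicate 3. Of all features those fits called 10.84% to 11.01% higher and 10.02% to 10.61% lower. The shares of ribosomal protein genes were smaller, at 2.53% to 5.06% higher and at most 5.06% lower. Scaled to library totals the count was 17 higher (21.5%) and 0 lower, against 17.98% and 10.81% of all features.

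Between SHP2-silenced and lovastatin-treated cells, both given CPT-11, no ribosomal protein gene was called. Of 79 genes 0 passed and 4 had an unadjusted p under 0.05 (limma), and limma-voom called 1, with a median of 0.09, against 2.58% of all features called higher and 4.26% lower. The largest differences were RPS28 (0.49, adjusted p = 0.252), RPS21 (0.32, adjusted p = 0.477), RPL8 (0.29, adjusted p = 0.448) and RPS2 (0.27, adjusted p = 0.153), and the lowest RPL17 (-0.14, adjusted p = 0.577). A p above the threshold does not show that the groups were alike, and without lovastatin replicate 1 the median was 0.17 with 2 genes called higher.

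Because the libraries differed in how their values changed with GC content and length, the comparisons were repeated after a correction of each library for both. The genes are not unusual in GC content: the median was 49.9% (41.9% to 63.5%) against 49.9% for protein-coding genes tested. They are short. The deposited lengths, which join all annotated exons of a gene, had a median of 3002 bases for these genes, whereas the shortest principal transcript (the APPRIS isoform in GENCODE release 29) had a median of 709 bases, against 2826 for protein-coding genes tested. A correction by the deposited length therefore places ribosomal protein genes among genes with much longer transcripts, so both lengths were used. The correction on principal transcripts also took GC content from that transcript and kept only genes that have one. The GC content printed for genes is elsewhere the mean over all their annotated transcripts, weighted by length.

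Corrected for GC and deposited length, the comparison of SHP2-silenced with untreated cells called 36 genes higher and 2 lower, with a median of 0.18, and 25.2% and 17.0% of the 17793 features with a GC value. Of the 26 genes first called higher, 24 were called again, and of the 2 first called lower, 0 were. Against CPT-11 alone it called 29 higher and 1 lower, with a median of 0.18, and 10.3% and 8.31% of those features. Corrected for GC and principal-transcript length, SHP2-silenced against untreated cells gave 26 higher and 11 lower with a median of 0.09, and 28.8% and 21.6% of the 13745 genes with a principal transcript. Of the 26 first called, 20 were called again and 25 kept their sign. Against CPT-11 alone that correction gave 26 higher and 5 lower with a median of 0.07, and 14.1% and 12% of those genes, with 19 of the 23 called again.

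With the correction on principal transcripts, then, 26 of the 79 genes (32.9%) were called higher against untreated cells, near the 28.8% of genes in that fit. The parts of the length, the GC measure and the set of genes in the change between the corrections were not tested. The correction changed genes by their GC content. Among the 39 tested genes above the median GC content the median difference between SHP2-silenced and untreated cells was 0.21 as deposited and 0.05 corrected, and among the 40 others it was 0.09 and 0.15. Across the 79 genes the Spearman correlation of the difference with GC content was 0.19 as deposited and -0.21 after this correction, a description over genes that share libraries.

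RPL26, RPL23A, RPS21 and RPLP1 were called higher under the correction on principal transcripts too. Against untreated cells they differed in SHP2-silenced cells by 0.92, 0.94, 0.62 and 0.72 (adjusted p = 0.000979, 0.0215, 0.00497 and 0.00532). Genes rich in GC moved down: RPS15, with 62.1% GC, went from -0.09 (adjusted p = 0.244) to -0.46 (adjusted p = 0.00479), and RPL13 from 0.42 (adjusted p = 0.0335) to 0.09 (adjusted p = 0.0818). RPS27L, the gene with the lowest GC content at 41.9%, went from 1.04 to 1.29. RPS15 and RPL13 are named for the correction after their values were seen.

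**Figure D5:**
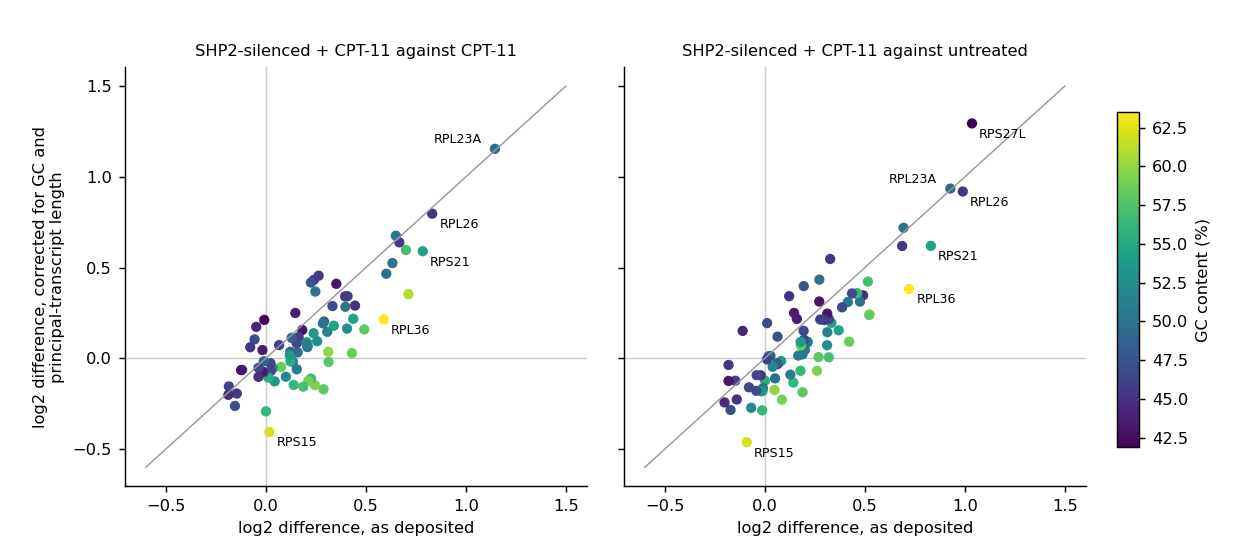
Log2 differences of the 79 tested genes as deposited (horizontal) and after correction for GC content and principal-transcript length (vertical), for SHP2-silenced cells against CPT-11 alone (left) and against untreated cells (right), coloured by GC content, with the line of equality. Genes rich in GC (yellow) tend to lie below the line, and RPL26 and RPL23A stay near it at 0.80 to 1.15.

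CPT-11 replicate 3 was examined in the same way. Of the 79 genes, 54 were above both other CPT-11 libraries in it and 16 below both, with a median difference of 0.18 from their mean, whereas over all features 41.1% were above and 41.2% below. After correction for GC and deposited length 53 genes were above and 20 below, with a median of 0.16. Over all 17793 corrected features 36.8% were above and 41.2% below, with a median of -0.01. Over the 79 genes the Spearman correlation of the excess with GC content was 0.30 before and -0.30 after the correction.

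In order of level, RPS2 was highest at a mean of 994 FPKM over the 12 libraries, followed by RPL13A (832), RPS12 (705) and RPL8 (694). Of the tested genes 74 had a mean above 10 FPKM and 54 above 100. The order depends on the length used, since FPKM divides by the joined exons of all isoforms. RPS29, a zinc-finger protein of the small subunit, had the 71st highest FPKM, with a deposited length of 9845 bases, but ranked 59th per kilobase of its principal transcript of 296 bases. RPL13 moved from rank 31 to rank 2. Across the 79 genes the Spearman correlation of the 2 scales was 0.82.

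Tissue-restricted paralogs were at or near 0. RPL3L, the copy of striated muscle, measured 0.02 to 0.48 FPKM with 1 to 22 reads a library. RPL10L, the testis copy of RPL10, had reads in 1 library, CPT-11 replicate 1 (0.076 FPKM), and RPL39L in lovastatin replicate 1 (0.12 FPKM). The last 2 did not pass the filter. RPS10 (1.18 to 2.00 FPKM), RPL36A (1.97 to 2.54) and RPL17 (5.21 to 8.22) were also low for core proteins, as was RPL26 with 5417 reads over the 12 libraries. Of their exonic length, 39.4% of RPS10 and 32.7% of RPL17 is shared with the read-through genes RPS10-NUDT3 and RPL17-C18orf32, and reads on the shared part cannot be assigned to either from these values.

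Processed pseudogenes, copies of the mRNAs scattered through the genome, limit the values too. The table lists 1132 of them, of which 664 had reads, and together they held 4.33% as many reads as the 81 genes. The share by library was 4.05% to 4.65%, so the SHP2-silenced libraries (4.29% to 4.46%) lay inside the range of the others. In 10 families the pseudogenes held at least 10% as many reads as the gene. RPS28P7 held 32290 reads over the 12 libraries against 17491 for RPS28, RPS2P5 held 113762 and RPL7P1 43232. RPL7P1, which lies within CSF1R on the other strand, held 2452, 2670 and 2624 reads in SHP2-silenced and 5490, 6319 and 2915 in CPT-11 libraries, and was lower in SHP2-silenced than in untreated cells (-0.74 ± 0.24, adjusted p = 0.0310), where RPL7 differed by 0.15 (adjusted p = 0.0930). Of the 10 most counted pseudogenes it was the 1 called lower in that comparison, while 5 were called higher, namely RPL13AP5 (0.37, adjusted p = 0.00328), RPL18AP3 (0.26, adjusted p = 0.0285), RPL9P9 (0.39, adjusted p = 0.00773), RPLP0P6 (0.45, adjusted p = 0.0306) and RPS28P7 (0.33, adjusted p = 0.0396). RPS28, RPL7 and these pseudogenes were named after their reads were seen.

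Against untreated cells, ribosome biogenesis factors were called lower more often than higher. Of 40 nucleolar factors of ribosome biogenesis, 2 were called higher and 17 lower in SHP2-silenced against untreated cells, with a median of -0.14, against 18.3% and 19.5% of all features. NCL, which encodes nucleolin, measured 212, 214 and 219 FPKM in untreated and 130.03, 137 and 145 in SHP2-silenced libraries, a difference of -0.64 (adjusted p = 0.000144), and NOP58, a core protein of box C/D small nucleolar particles, differed by -0.60 (adjusted p = 3.7e-05). With lovastatin and CPT-11 the counts were 1 higher and 19 lower, with a median of -0.23, against 14.7% and 14.3% of all features. With CPT-11 alone they were 1 and 11, with a median of -0.11, against 8.85% and 7.70%. These 3 comparisons share the untreated libraries.

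The lists that follow are given as deposited, without correction for GC and length, and stand against 18.3% of all features called higher and 19.5% lower. Of 17 translation factors whose mRNAs also carry the TOP sequence, 2 were called higher and 7 lower in SHP2-silenced against untreated cells, with a median of -0.11. EIF3H, a subunit of the initiation factor eIF3, was lowest by p (-0.60, adjusted p = 9.0e-05). EEF1A1, which delivers aminoacyl-tRNAs, measured 1589 to 1631 FPKM in untreated and 1460 to 1521 in SHP2-silenced libraries and was named for its level after it was seen. Of 11 snoRNA host genes 2 were called higher and 2 lower (median 0.02), with GAS5 at -0.37 (adjusted p = 0.00250) and SNHG1 at -0.34 (adjusted p = 0.00191). Of 75 mitochondrial ribosomal protein genes 20 were called higher and 17 lower (median 0.05).

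Of 21 genes of mTORC1 signalling and TOP control, 5 were called higher and 9 lower in SHP2-silenced against untreated cells, with a median of -0.18, where 18.3% of all features were called higher and 19.5% lower. SESN1, a p53 target that restrains mTORC1, was higher than in untreated cells by 1.09 in SHP2-silenced cells given CPT-11 (adjusted p = 2.8e-06) and by 1.33 with CPT-11 alone (adjusted p = 1.2e-06). LARP1, which binds the TOP sequence, was lower with CPT-11 alone (-0.39, adjusted p = 0.000461). Of the 8 genes of the p53 circuit 5 were called higher and 1 lower in SHP2-silenced against untreated cells, with a median of 0.31, against the same shares of all features. Of 5 paralogs that the name rule leaves out, 0 were called higher and 2 lower, namely RSL24D1 (-0.59, adjusted p = 0.000322) and RPL7L1 (-0.32, adjusted p = 0.00355).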

How the data were processed

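RNA was sequenced from 12 HCT-116 libraries, 3 in each of 4 groups set by the sample titles. Per the submitters' processing notes, the tools included featureCounts 1.5.0-p3, HISAT2 2.0.5, DESeq2 1.16.1 and StringTie 1.3.3b, with hg19 as build. How strand and multiply mapped reads were treated is not given in the sources used. All 58735 features with an identifier in GENCODE release 29 had the coordinates of that GRCh38 annotation, and those coordinates are printed. The deposited values are FPKM, computed by the authors with gene lengths that join all exons. They were multiples of whole reads in every library (tolerance 0.01), which gave 14447847 to 16224271 reads per library.

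Features with at least 10 reads in 3 libraries and 15 in total were tested with limma 3.58.1 (R 4.3.3, trended variance) on log2(FPKM + 1), 1 mean per group over all 12 libraries, for 6 comparisons. Differences are on that scale, ± is the standard error of the fit beside a difference and the SD beside a mean, and p-values were adjusted by Benjamini-Hochberg at 0.05 over all features of a fit, 18062 as deposited, 17793 with the GC and deposited-length correction and 13745 with that on principal transcripts. The script was tested on simulated data. Log2 differences of low genes are understated by the pseudocount of 1.

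Named genes are the 4 highest and 4 lowest differences of each comparison, a set chosen for its roles, and up to 3 genes of each other list by p; others are marked where named. The values of 1 gene that the rule takes are not reported here. The members and lists were chosen with earlier results of these data known. Alternatives were a pseudocount of 0.1, other filters and scalings, limma-voom on recovered reads, fits of the compared groups only, a replicate block, each library left out, and per-library loess corrections for GC and length. The correction on the shortest principal transcript, with the GC content of that transcript, was added after the data were seen.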

Additional observations from a re-analysis of the deposited data

How the results depend on the processing

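Of 35 calls of named ribosomal protein genes, 5 passed under every alternative run (RPS27L in 3 comparisons, and RPL26 and RPL36 in SHP2-silenced against untreated cells), 30 were lost under at least 1, and 0 reversed. Numbers of genes called, higher and lower together, are given in what follows, with shares by direction for some. CPT-11 against untreated (2 called) gave 6 with the GC and length correction, 9 on principal transcripts, 13 with GC and length without CPT-11 replicate 3, 5 with length alone, 5 without the 20 most counted genes in the scaling, 4 with voom, and 1 each with no filter, with only the groups compared and with the trimmed mean; leaving out 1 library gave 1 to 9. Lovastatin against CPT-11 (0) gave 36 with GC and length without CPT-11 replicate 3, and 0 to 33 with 1 library left out. The 36 were 29 higher and 7 lower (36.7% and 8.86%), against 8.80% and 8.44% of features in that fit. SHP2-silenced against CPT-11 (23) gave 43 with that correction, 0 with no filter and 0 with only the groups compared, and 0 to 46 with 1 library left out. SHP2-silenced against lovastatin (0) gave 1 each with GC and length, on principal transcripts, with length alone, with only the groups compared and with voom, 6 with GC and length without CPT-11 replicate 3, and 0 to 2 with 1 library left out. The 6 were all higher (7.59%), against 8.26% of features called higher and 7.94% lower. The 1 in each of the other fits was higher, against 2.93% to 9.10% of features called higher and 3.89% to 8.92% lower. Lovastatin against untreated (12) gave 23 with GC and length, 32 on principal transcripts, 36 with GC and length without CPT-11 replicate 3, 3 with no filter, 19 with voom, and 2 to 10 with 1 library left out; 8 higher and 4 lower became 16 and 0 without the 20 most counted genes in the scaling. SHP2-silenced against untreated (28) gave 48 with GC and length without CPT-11 replicate 3, 13 with no filter, 49 with only the groups compared, 43 under both library totals and the scaling without the 20 most counted genes, and 12 to 29 with 1 library left out. The 48 were 43 higher and 5 lower (54.4% and 6.33%), against 27.3% and 19.0% of features. The 13 were all higher (16.0%), against 6% of features called higher and 6.81% lower. Under both scalings the 43 were all higher (54.4%). Features were at 24.0% and 14.2% with library totals and 23.8% and 14.4% without the 20 most counted genes. The cause of these changes was not tested, except that fewer libraries or more features entered where stated.

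The share of reads was 5.47%, 5.67%, 6.04% and 6.63% (untreated, CPT-11, lovastatin, SHP2-silenced) without the 20 most counted other genes, and 6.18% of protein-coding reads in SHP2-silenced cells. With 1 library left out it ranged from 4.77% to 5.01%, 4.82% to 5.19%, 5.17% to 5.58% and 5.92% to 5.99% in that order.

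Replicate numbers did not pair the samples: of 18 pairs with the same number, the correlation of deviations was -0.39 to 0.17 and 2 exceeded 0.1. With the replicate number as a block the counts were 1 for CPT-11 against untreated and 2 for SHP2-silenced against CPT-11. They were 6 for lovastatin against untreated and 20 for SHP2-silenced against untreated. The 1 was higher (1.27%), against 7.02% of features called higher and 5.58% lower. The 2 were higher (2.53%), against 5.59% and 7.46% of features. The 6 were 4 higher and 2 lower (5.06% and 2.53%), against 12.86% and 12.05%. The 20 were all higher (25.3%), against 16.2% and 17.4%. With the block and the GC and length correction the counts were 5 for CPT-11 against untreated and 1 for SHP2-silenced against lovastatin. The 5 were 2 higher and 3 lower, against 13.4% and 10.1% of features. The 1 was higher, against 5.09% of features called higher and 5.40% lower.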

Other observations

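Mitochondrial ribosomal protein genes, which encode the separate ribosome of that organelle, were tested as a further list, as deposited and with CPT-11 replicate 3. Of 75, 5 were called higher and 19 lower with lovastatin and CPT-11 against untreated cells, with a median log2 difference of -0.06, against 14.7% and 14.3% of all features. In SHP2-silenced against CPT-11-treated cells 15 were called higher and 4 lower, with a median of 0.09, against 10% and 12% of all features.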
